A study of Mus musculus with 22 samples.

Results

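The genes described here are 38 genes of the BMP and TGF-beta signalling pathway in the forebrain of *Prdm16* KO mouse embryos at E13.5. They were chosen by name, as the rows of the RNA-seq gene counts that hold the ligands, receptors, SMADs, inhibitors, response genes and SKI corepressors of the pathway, out of 24421 genes in the table. All 38 had enough counts to be tested, among 15027 tested genes. The comparison was between 3 KO embryos and 3 control embryos, with 1 library per embryo, and asked how gene expression changes in the forebrain when PRDM16 is absent. The KO embryos were homozygous for gene-trap null alleles of *Prdm16* in a line outcrossed to FVB/NJ, and which of the null alleles each RNA-seq embryo carried is not stated in the labels or the Materials and Methods. The loss was in the whole embryo and not in the forebrain alone. The controls were labelled as heterozygous or wild type and called wild type in the Materials and Methods. The labels name the forebrain as the tissue and the Materials and Methods the cortex. No embryo was treated with an agent. Libraries are named by the animal numbers of the count table, which are F727, F728 and F731 for KO and F722, F724 and F725 for control.

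BMPs and TGF-betas are secreted ligands that bring type I and type II receptor kinases together on the cell surface. The type I receptor phosphorylates receptor SMADs, which are SMAD1, SMAD5 and SMAD9 on the BMP side and SMAD2 and SMAD3 on the TGF-beta and activin side. These enter the nucleus with SMAD4 and act on target genes. In the embryonic forebrain, BMPs of the dorsal midline and the neighbouring cortical hem pattern the choroid plexus and the medial cortex, and genes of the *Id* and *Msx* families are well known targets. Secreted antagonists, the decoy receptor BAMBI and the inhibitory SMADs limit the signal. SKI and SKIL repress SMAD targets in the nucleus, and PRDM16 itself is known to bind SKI and to dampen TGF-beta signalling in other cells.

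Promoter sequences from RefSeq (GRCm38.p6, the assembly of mm10) were matched to 27 of the 38 members, and windows of 250 bases before each start were searched on both strands for GGCGCC, a GC-rich element bound by BMP-activated SMADs, for GTCTAGAC, the palindrome bound by SMAD3 and SMAD4, and for CAGACA, which holds the shorter SMAD box. *Bmp2*, *Bmp7*, *Tgfb3*, *Smad2*, *Smad4*, *Smad7*, *Nog*, *Fst*, *Bambi*, *Id1* and *Skil* had no matched promoter and were not searched. No motif contains another, and no member window held more than 1 kind of them. GGCGCC was present in 10 of the 27 members (37%), namely *Bmpr1a*, *Bmpr2*, *Chrd*, *Grem1*, *Id2*, *Id4*, *Ski*, *Smad5*, *Smad9* and *Tgfbr1*, and in 10.8% of 27025 genes, or 9.59% of 32851 promoters. The windows were not matched for base composition. CAGACA was present in 4 members (14.8%) and in 19.3% of genes, and GTCTAGAC in 0 members and 0.2% of genes. Windows are shown for the response gene with the highest level (*Id4*), for a response gene of the dorsal midline that was low in 1 control library (*Msx1*), and for the member with the smallest *P*-value once KO F731 was left out (*Smad3*). They run 5′ to 3′ along the strand of the gene and end at the base before the RefSeq start, with GGCGCC in capitals. In *Id4* this match begins 148 bases before the start, and the other windows hold none of the 3 motifs.
Id4, chr13:48260866-48261115, plus strand: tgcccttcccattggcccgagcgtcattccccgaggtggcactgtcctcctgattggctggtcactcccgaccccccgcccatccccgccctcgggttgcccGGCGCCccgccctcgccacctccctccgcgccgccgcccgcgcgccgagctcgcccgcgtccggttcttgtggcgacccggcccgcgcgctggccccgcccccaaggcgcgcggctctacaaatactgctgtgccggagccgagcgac
Msx1, chr5:37824586-37824835, minus strand: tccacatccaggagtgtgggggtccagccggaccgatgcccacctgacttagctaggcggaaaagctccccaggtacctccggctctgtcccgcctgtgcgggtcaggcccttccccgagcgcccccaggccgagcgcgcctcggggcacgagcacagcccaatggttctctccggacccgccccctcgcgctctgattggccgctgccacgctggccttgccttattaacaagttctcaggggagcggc
Smad3, chr9:63757995-63758244, minus strand: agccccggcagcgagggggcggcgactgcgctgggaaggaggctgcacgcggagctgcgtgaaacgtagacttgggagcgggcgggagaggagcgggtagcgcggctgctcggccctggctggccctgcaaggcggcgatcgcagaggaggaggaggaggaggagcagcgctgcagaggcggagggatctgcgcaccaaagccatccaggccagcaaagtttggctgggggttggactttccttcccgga

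*Prdm16*, the targeted gene, had 99 to 349 counts in the KO libraries and 1114 to 2015 in the controls. Depth ran from 16638433 to 43066648 counts. KO F731 was the shallowest library and stood apart from the rest, with counts for 22991 genes against 17795 to 18320 in the other 5 libraries and with 7.39% of its counts on *Rn45s*, the ribosomal RNA precursor, against at most 2.43%. Log2 fold changes are therefore given with and without this library. Levels are TMM-normalized CPM (counts scaled to a common library size), and log2 fold changes are KO minus control from edgeR, with adjusted *P*-values over all tested genes. The dorsal forebrain markers *Emx1* (87.4 to 124.1 CPM) and *Pax6* (121 to 188 CPM) were high in every library. A list of 10 ventral telencephalon genes summed to 495.4, 662.5 and 476.7 CPM in KO F727, F728 and F731. In control F722, F724 and F725 the list summed to 507.6, 563.9 and 882.6 CPM. Control F725 was the highest library for 9 of the 10. Log2 fold changes were below 0 for 9 of the 10, or 8 without KO F731. Of 11 forebrain radial glia genes, *Emx1* and *Pax6* among them, 6 lay above 0 and 5 below. Of 8 cortical neuron genes, 8 lay below 0 (median -0.21), or 7 without KO F731 (median -0.18). Control F724 was the highest library for 5 of these 8. The parts of ventral tissue and of neurons in the values of the members were not tested. In whole tissue, fewer cells of a type and less RNA per cell cannot be told apart.

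The pathway was unevenly represented in this tissue (plot of levels by role). In CPM per kb of exonic length, the median of the control means was 0.423 over the 8 ligands, 7.02 over the 9 receptors, 10.9 over the 6 SMADs, 1.81 over the 7 inhibitors, 8.09 over the 6 response genes and 14.6 over the 2 corepressors. The 8 ligands chosen here were thus mostly low, and most of the receptors, SMADs and corepressors were higher. Ligand genes of the superfamily outside these 8 are not covered by the medians. The highest level was that of *Id4*, which encodes an inhibitor of basic helix-loop-helix factors, at 98.0 CPM per kb in controls (range 85.4 to 114.2). It was followed by *Id2* at 41.9, *Smad4* at 31.0, *Smad5* at 26.8 and *Ski* at 23.4 CPM per kb. Among the receptors, *Acvr2a* (20.05), *Tgfbr1* (19.2), *Acvr1b* (17.2) and *Bmpr1a* (16.5 CPM per kb) were highest, and each overlapped its neighbour in this order over the range of the controls. *Tgfbr2*, the type II receptor that binds TGF-beta, was by far the lowest receptor, at 0.653 CPM per kb. The lowest members were *Grem1* (0.0873), *Smad9* (0.105), *Bmp2* (0.129), *Bmp4* (0.155) and *Msx2* (0.184 CPM per kb).

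**Figure D1:**
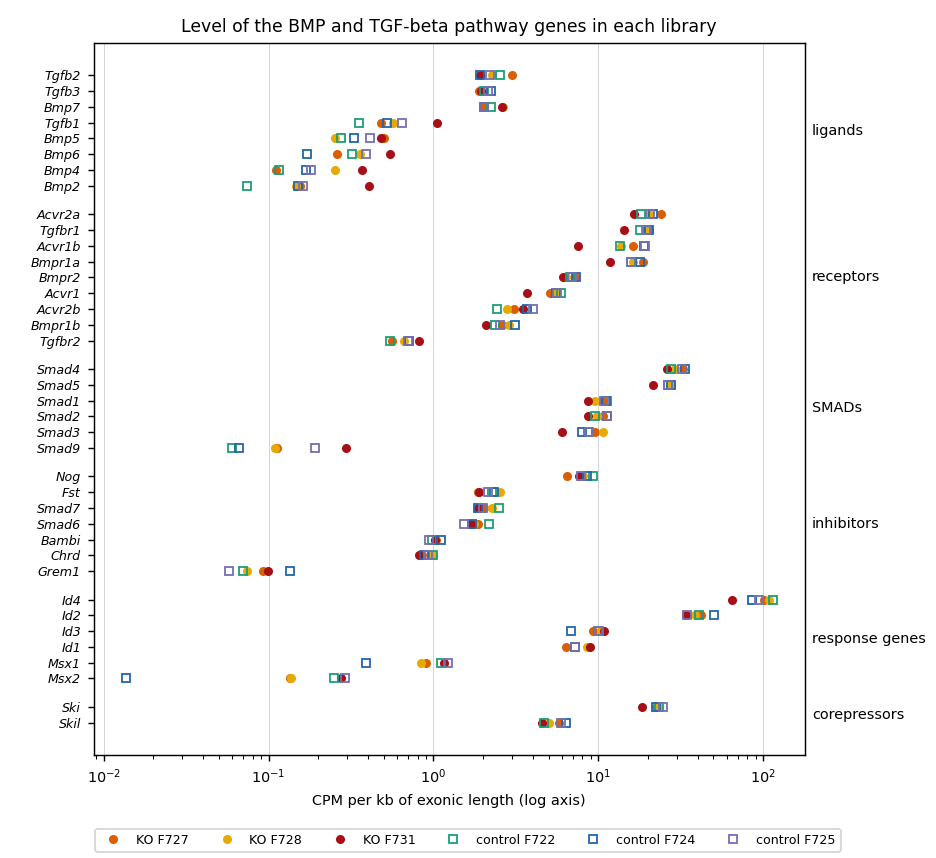
Level of each of the 38 genes in each library, in CPM per kb of exonic length on a log axis, with KO libraries as filled circles and control libraries as open squares, grouped by role. Most ligands lie to the left of most receptors and SMADs, *Id4* lies farthest to the right at 98.0 CPM per kb in controls, and control F724 lies far to the left for *Msx1* and *Msx2*.

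edgeR called no member at the 0.05 threshold on adjusted *P*-values, and with all 6 libraries it called 0% of the 15027 tested genes (1.92% fell under an unadjusted *P*-value of 0.05). Even the targeted gene *Prdm16*, with a log2 fold change of -2.61, missed this threshold in edgeR (adjusted *P*=0.0536). It passed in DESeq2 (adjusted *P*=7.1e-24). A lack of edgeR calls among the members therefore says little about whether they changed. The smallest adjusted *P*-value of a member in edgeR was 0.863. DESeq2 called 0 members and 0.115% of 15632 genes. The unadjusted edgeR *P*-value was under 0.05 for 0 of the 38 members. The log2 fold changes of the members ran from -0.46 to 0.77 with a median of -0.061, and 15 lay above 0 and 23 below, beside a median of -0.0037 over all tested genes. A *P*-value that misses the threshold does not show that KO and control are alike, and the width of the intervals says how much change remains possible. The 95% interval lay within a 1.5-fold change in either direction for 26 members and within a 2-fold change for 28. The other 10 were *Acvr1b* and the 9 members under 3 CPM in controls, namely *Bmp2*, *Bmp4*, *Bmp5*, *Bmp6*, *Tgfb1*, *Smad9*, *Grem1*, *Msx1* and *Msx2*. Without KO F731 the interval lay within a 2-fold change for 32 members.

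**Figure D2:**
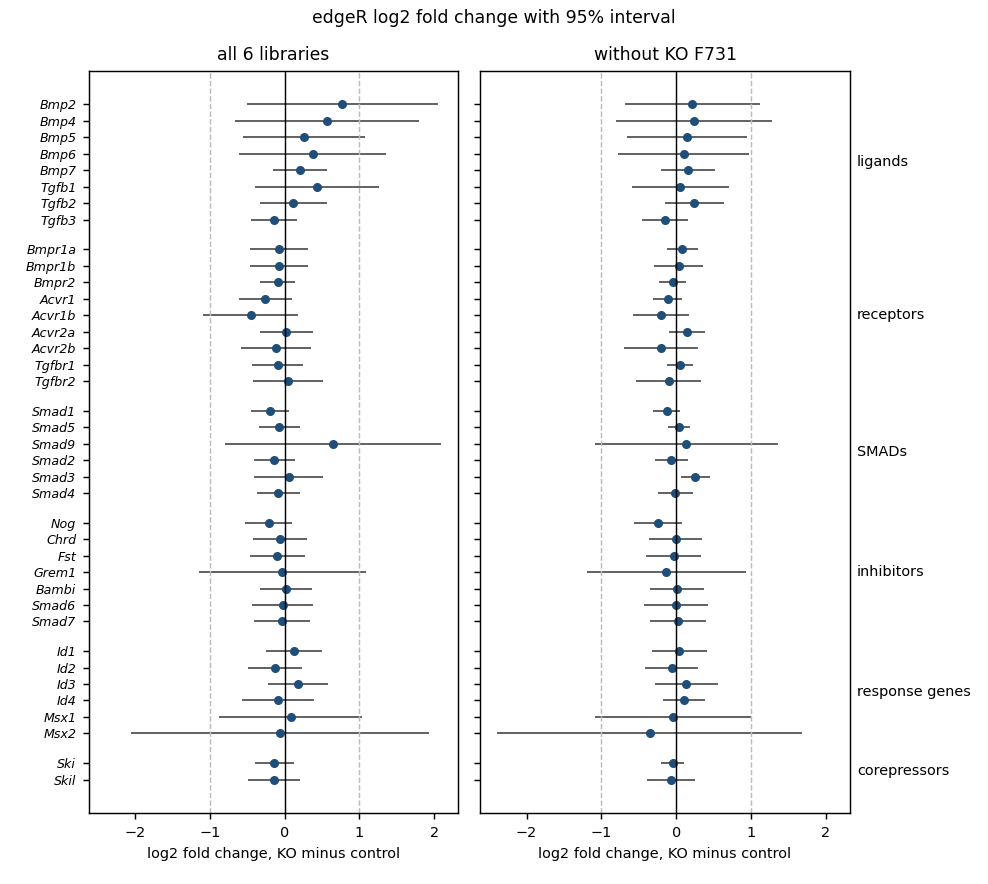
Log2 fold change (KO minus control, points) of each member with its 95% interval (lines) from edgeR, over all 6 libraries on the left and without KO F731 on the right, with dashed lines at a 2-fold change. Ligands lie mostly right of 0 on the left, all but *Tgfb2* and *Tgfb3* lie nearer to 0 on the right, and *Smad3* on the right is the interval that excludes 0.

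Log2 fold changes were above 0 for 7 of 8 ligands (median 0.32), and the same 7 lay above 0 without KO F731, with a median of 0.15. *Bmp2*, which encodes a BMP of the dorsal midline, had the largest log2 fold change of all members. It was at 0.55, 0.52 and 1.45 CPM in KO F727, F728 and F731 and at 0.26, 0.54 and 0.58 CPM in control F722, F724 and F725. Only KO F731 lay above the controls, and the other KO libraries lay among them. The log2 fold change was 0.77 (standard error 0.55, 95% interval -0.51 to 2.05, edgeR adjusted *P*=0.863) and 0.22 (standard error 0.38) without KO F731. These values rest on 9 to 24 counts per library. *Bmp2* lies on chromosome 2 of GRCm38 from 133552159 to 133562885 on the plus strand.

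Its close relative *Bmp4* was at 0.25, 0.57 and 0.83 CPM in KO and 0.26, 0.38 and 0.41 CPM in control, in the same order of libraries, so that the KO range enclosed the control range (log2 fold change 0.56, and 0.24 without KO F731). *Bmp5*, *Bmp6* and *Bmp7* encode a related subgroup of BMPs, and their log2 fold changes were 0.26, 0.37 and 0.20, or 0.15, 0.10 and 0.16 without KO F731. *Bmp7* was the best measured of them, at 8.06, 10.61 and 10.40 CPM in KO and 8.94, 8.15 and 8.09 CPM in control. KO F728 and F731 lay above every control and KO F727 just below (95% interval -0.15 to 0.56). *Tgfb1* had a log2 fold change of 0.43 over all libraries and 0.057 without KO F731, which held its highest level, 5.30 CPM against 1.77 to 3.26 CPM elsewhere. *Tgfb2* was the ligand with the highest level, at 13.8 ± 3.13 CPM (SD, n = 3) in KO and 12.8 ± 1.82 CPM (SD, n = 3) in control. Its log2 fold change was 0.12, and 0.24 without KO F731.

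*Tgfb3* was the only ligand below 0. Its libraries were at 6.38, 6.62 and 6.61 CPM in KO F727, F728 and F731 and at 6.88, 7.54 and 7.24 CPM in control F722, F724 and F725. Every KO library lay below every control, as for 3.55% of all tested genes, but the difference was small (log2 fold change -0.14, standard error 0.13, 95% interval -0.45 to 0.16, edgeR adjusted *P*=0.863). It was -0.15 without KO F731 and kept its sign with each library left out. *Tgfb3* lies on chromosome 12 from 86056745 to 86079041 on the minus strand. The summed CPM of the 8 ligands was 37.96, 36.65 and 39.80 in the KO libraries and 35.19, 32.31 and 35.47 in the controls. Most of each sum came from *Tgfb2*, *Bmp7* and *Tgfb3*. In KO F731, *Tgfb2* lay among the controls, *Tgfb3* below them and the other ligands above them. Of those, *Bmp2*, *Bmp4*, *Bmp5*, *Bmp6* and *Tgfb1* were under 3 CPM in controls, where KO F731 was the highest library for 68.9% of tested genes. The sums of the 8 ligands did not overlap between KO and control. No test was made of them because the members had been chosen with these data known, and how often sums of other genes separate was not worked out.

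Among the receptors, 7 of 9 had a log2 fold change below 0, or 5 of 9 once KO F731 was left out, and the median moved from -0.093 to -0.046. *Acvr1*, which encodes a type I receptor of BMPs, was at 24.76, 26.21 and 17.90 CPM in KO F727, F728 and F731 and at 28.66, 26.91 and 27.11 CPM in control F722, F724 and F725. All KO libraries lay below all controls, with KO F731 far below and KO F728 within 1 CPM of the controls. The log2 fold change was -0.26 (standard error 0.16, 95% interval -0.62 to 0.10, edgeR adjusted *P*=0.863) and -0.11 (standard error 0.082) without KO F731. *Acvr1* lies on chromosome 2 from 58388644 to 58567157 on the minus strand.

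*Acvr1b*, which encodes a type I receptor for activin and Nodal ligands, had the lowest log2 fold change of all members, -0.46 (standard error 0.27, 95% interval -1.09 to 0.18, edgeR adjusted *P*=0.863). It was at 72.07, 60.27 and 33.26 CPM in KO F727, F728 and F731 and at 60.22, 83.17 and 84.56 CPM in control F722, F724 and F725. The groups overlapped through control F722, and KO F731 held less than any other library. Without KO F731 the log2 fold change was -0.20 (standard error 0.16). *Acvr1b* lies on chromosome 15 from 101174067 to 101213684 on the plus strand. At the other end of the group, *Tgfbr2* on chromosome 9 (116084293 to 116175360, minus strand) differed by a log2 fold change of 0.043 (standard error 0.20, 95% interval -0.42 to 0.51, edgeR adjusted *P*=0.955). Its levels were 4.57, 5.42 and 6.68 CPM in KO and 4.44, 5.85 and 5.74 CPM in control, so that the groups overlapped throughout, and without KO F731 the log2 fold change was -0.097.

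*Bmpr1a*, a type I receptor that is needed for dorsal midline development in mice, was at 98.7 ± 22.0 CPM (SD, n = 3) in KO and 104.6 ± 7.22 CPM (SD, n = 3) in control, with a log2 fold change of -0.082 over all libraries and 0.079 without KO F731. *Bmpr2*, the type II receptor of BMPs, had a log2 fold change of -0.093 (95% interval -0.33 to 0.14), and -0.046 without KO F731. *Bmpr1b*, *Acvr2a*, *Acvr2b* and *Tgfbr1* had log2 fold changes from -0.12 (*Acvr2b*) to 0.021 (*Acvr2a*), and without KO F731 these were 0.036, 0.15, -0.20 and 0.047 in the order named. Receptor sums were 646.8, 581.1 and 456.2 CPM in the KO libraries and 558.8, 649.3 and 618.0 CPM in the controls, so that KO F731 alone lay outside the control range on the low side.

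Of the 6 SMADs, 4 lay below 0 over all libraries and 3 without KO F731. *Smad1*, which encodes a receptor SMAD of the BMP branch, was at 67.06, 59.98 and 53.92 CPM in KO F727, F728 and F731 and at 70.41, 70.16 and 67.71 CPM in control F722, F724 and F725. Every KO library lay below every control, the third and last member of which this was true (3 of 38 members, beside the 3.55% of tested genes given above). KO F727 came within 1 CPM of control F725. The log2 fold change was -0.20 (standard error 0.11, 95% interval -0.46 to 0.053, edgeR adjusted *P*=0.863) and -0.13 (standard error 0.075) without KO F731. *Smad1* lies on chromosome 8 from 79338395 to 79399518 on the minus strand. *Smad5*, its close relative and the SMAD with the highest CPM, was at 189.2 ± 25.1 CPM (SD, n = 3) in KO and 198.8 ± 4.90 CPM (SD, n = 3) in control, with a log2 fold change of -0.071 that became 0.034 without KO F731.

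*Smad9*, the third BMP receptor SMAD, was scarce, at 0.61, 0.59 and 1.58 CPM in KO F727, F728 and F731 and at 0.32, 0.36 and 1.02 CPM in control F722, F724 and F725. The groups overlapped, and KO F731 and control F725 were the high libraries of each group. The log2 fold change was 0.65 (standard error 0.62, 95% interval -0.80 to 2.10, edgeR adjusted *P*=0.863) on 11 to 30 counts per library, and 0.14 without KO F731. *Smad9* lies on chromosome 3 from 54755582 to 54801257 on the plus strand.

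*Smad3*, a receptor SMAD of the TGF-beta branch, lay on opposite sides of the controls in different KO libraries. It was at 53.20, 59.09 and 33.33 CPM in KO F727, F728 and F731 and at 47.76, 44.37 and 48.82 CPM in control F722, F724 and F725. KO F727 and F728 lay above every control, and KO F731 lay below every control. Over all 6 libraries the log2 fold change was 0.053 (standard error 0.20, 95% interval -0.41 to 0.52, edgeR adjusted *P*=0.943). Without KO F731 it was 0.26 (standard error 0.082, 95% interval 0.066 to 0.45), which did not pass adjustment (edgeR adjusted *P*=0.9999). It was then the 1 member of 38 under an unadjusted *P*-value of 0.05, where 2.63% of tested genes fell under it, and the 1 member with every remaining KO library above every control, as for 7.3% of tested genes. *Tgfb3*, *Acvr1* and *Smad1* had every remaining KO library below every control in that reading, as for 6.91% of tested genes. Over all 6 libraries 0 members had every KO library above every control, a state that held for 3.86% of tested genes. *Smad3* lies on chromosome 9 from 63646767 to 63757994 on the minus strand. *Smad2*, which shares its branch, had a log2 fold change of -0.14 and *Smad4*, the shared partner of all receptor SMADs, one of -0.083, and without KO F731 these were -0.063 and -0.010.

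The inhibitors had log2 fold changes from -0.22 to 0.013 and a median of -0.037, or -0.0056 without KO F731. *Nog*, which encodes the secreted BMP antagonist noggin, was at 10.92, 13.62 and 13.02 CPM in KO F727, F728 and F731 and at 15.74, 14.55 and 13.28 CPM in control F722, F724 and F725. The groups overlapped by KO F728 and control F725 alone. The log2 fold change was -0.22 (standard error 0.14, 95% interval -0.54 to 0.10, edgeR adjusted *P*=0.863), it was -0.24 without KO F731, and with each library left out it ran from -0.32 to -0.13. *Nog* lies on chromosome 11 from 89300638 to 89302332 on the minus strand. *Chrd* and *Fst*, which encode the antagonists chordin and follistatin, had log2 fold changes of -0.060 and -0.097, which were -0.0056 and -0.034 without KO F731. *Grem1*, which encodes gremlin, had one of -0.033 on 6 to 25 counts per library, and -0.13 without KO F731.

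*Bambi*, *Smad6* and *Smad7* encode inhibitors that are themselves switched on by the pathway, and they are read here both as inhibitors and as responders. *Bambi*, on chromosome 18 from 3507923 to 3516404 on the plus strand, was at 5.23, 5.16 and 5.16 CPM in KO and 4.94, 5.67 and 4.79 CPM in control. The KO libraries lay inside the control range, and the log2 fold change was 0.013 (standard error 0.15, 95% interval -0.34 to 0.36, edgeR adjusted *P*=0.982), or 0.014 without KO F731. *Smad6* and *Smad7*, the inhibitory SMADs, had log2 fold changes of -0.029 and -0.037, and of -0.0027 and 0.023 without KO F731. Their 95% intervals ran from -0.44 to 0.38 and from -0.41 to 0.34.

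The 6 response genes split evenly, 3 above 0 and 3 below, around a median of 0.0097, and with *Bambi*, *Smad6* and *Smad7* added 4 of 9 lay above 0. *Id3* had the highest log2 fold change of the group, 0.18 (standard error 0.17, 95% interval -0.22 to 0.58, edgeR adjusted *P*=0.863). It was at 16.59, 18.62 and 19.28 CPM in KO F727, F728 and F731 and at 17.91, 12.25 and 18.01 CPM in control F722, F724 and F725. Control F724 lay well below the other 5 libraries, and the log2 fold change was 0.012 without it and 0.14 without KO F731. *Id3* lies on chromosome 4 from 136143497 to 136145755 on the plus strand. *Id2* had the lowest log2 fold change of the group, -0.13 (standard error 0.16, 95% interval -0.49 to 0.23, edgeR adjusted *P*=0.864). It was at 102.19, 94.59 and 83.19 CPM in KO and 100.20, 122.79 and 83.82 CPM in control, where control F724 was the high library, and the log2 fold change was -0.058 without KO F731. *Id2* lies on chromosome 12 from 25093799 to 25097140 on the minus strand.

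*Id1* held nearly the same level in all controls, 8.36, 8.37 and 8.39 CPM, and KO libraries fell on either side at 7.34, 9.90 and 10.33 CPM (log2 fold change 0.13, 95% interval -0.25 to 0.51, and 0.044 without KO F731). *Id4*, whose promoter window is shown above, was at 392.2, 419.8 and 249.3 CPM in KO and 439.7, 328.7 and 363.0 CPM in control. KO F727 and F728 lay inside the control range and KO F731 below it, and the log2 fold change was -0.092 over all libraries and 0.11 without KO F731.

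*Msx1* and *Msx2*, homeobox genes of the dorsal midline, varied more among the control libraries than among the KO libraries. *Msx1* was at 2.78, 2.62 and 3.58 CPM in KO F727, F728 and F731 and at 3.46, 1.21 and 3.81 CPM in control F722, F724 and F725. *Msx2* was at 0.44, 0.45 and 0.90 CPM in KO and 0.81, 0.04 and 0.95 CPM in control, the value of control F724 being 2 counts. Control F724 was the lowest library for both genes. Over all 6 libraries the log2 fold change was 0.080 (95% interval -0.88 to 1.04) for *Msx1* and -0.061 (95% interval -2.06 to 1.94) for *Msx2*. Without KO F731 they were -0.044 and -0.35, and without control F724 -0.30 and -0.63. Without both control F724 and KO F731, a choice made after the values had been seen, they were -0.43 and -0.98. *Msx2* was then the 1 member of 38 under an unadjusted *P*-value of 0.05, where 1.75% of tested genes fell under it, and it did not pass adjustment in edgeR. With all libraries kept, neither *Msx* gene was measured to within a 2-fold change.

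Markers of the cortical hem and roof plate moved with control F724 as well. Of a list of 10 such genes, which includes the members *Bmp6* and *Msx1*, all 10 were lowest in control F724. *Wnt3a*, the defining gene of the hem, was at 0.18 CPM in control F724 and at 4.59 to 6.34 CPM in the other 5 libraries. *Lmx1a*, a roof plate gene, was at 0.27 CPM against 3.82 to 7.92 CPM, and *Rspo2* at 1.16 against 10.08 to 19.39 CPM. Summed over the list, control F724 held 30.4 CPM, the other controls 96.0 and 111.2 CPM and the KO libraries 99.5 to 128.8 CPM. *Bmp6* had a log2 fold change of 0.37 over all libraries and 0.091 without control F724. The part that the share of midline tissue in control F724 plays in the values of *Msx1*, *Msx2*, *Bmp6* and *Id3* was not tested.

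**Figure D3:**
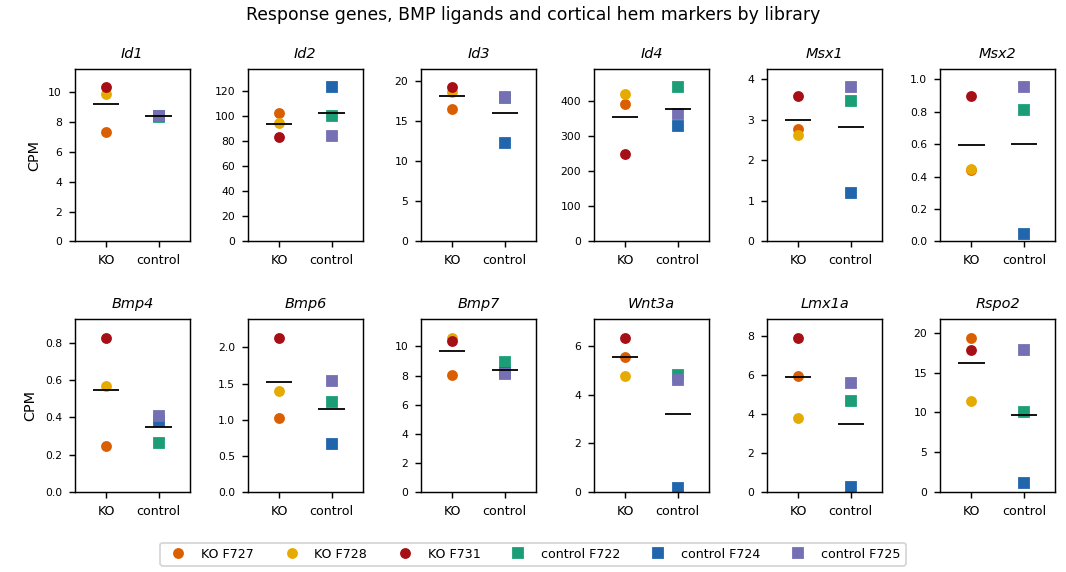
CPM of the 6 response genes, 3 BMP ligands and 3 cortical hem markers in KO libraries (circles) and control libraries (squares), with horizontal lines at the group means and each axis starting at 0. Control F724 is the lowest library for *Msx1* (1.21 CPM), *Msx2* (0.04 CPM), *Bmp6*, *Wnt3a* (0.18 CPM), *Lmx1a* and *Rspo2*, and KO F731 is the highest for *Bmp4* and *Bmp6*.

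Both corepressors had log2 fold changes below 0, with 95% intervals that spanned 0 and lay within a 1.5-fold change. *Ski*, on chromosome 4 from 155154075 to 155222592 on the minus strand, was at 124.22, 128.08 and 102.74 CPM in KO F727, F728 and F731 and at 129.81, 124.24 and 136.95 CPM in control F722, F724 and F725. KO F728 lay among the controls, KO F727 level with the lowest of them and KO F731 below. The log2 fold change was -0.14 (standard error 0.11, 95% interval -0.40 to 0.13, edgeR adjusted *P*=0.863) and -0.047 (standard error 0.066) without KO F731. *Skil*, which encodes the related protein SnoN, lies on chromosome 3 from 31095058 to 31122577 on the plus strand and was at 56.09, 48.84 and 44.28 CPM in KO and 45.56, 62.04 and 57.32 CPM in control. The groups overlapped, and the log2 fold change was -0.14 (standard error 0.15, 95% interval -0.49 to 0.20, edgeR adjusted *P*=0.863). Without KO F731 it was -0.069. *Skil* is also a target of TGF-beta signalling.

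Set side by side, the medians were above 0 for ligands (0.32) and response genes (0.0097) and below 0 for receptors, SMADs, inhibitors and corepressors. Without KO F731 the median of the SMADs turned to 0.012 and that of the response genes to -0.00027, and the other 4 kept their sign. The ligands stayed highest (0.15) and the corepressors lowest (-0.058) without that library. What set this order was not tested. Of the 9 members under 3 CPM in controls, 7 lay above 0, and KO F731 was the highest library for 5 of the 9. Among all 3093 tested genes of that level, KO F731 was the highest library for 68.9%, and their median log2 fold change was 0.29. Of the 14 members at 30 CPM or more, KO F731 was the lowest library for 14, beside 52.6% of the 6947 tested genes of that level, and 2 of the 14 lay above 0. Without KO F731 the median log2 fold change of the low members went from 0.37 to 0.10 and that of the high members from -0.093 to -0.028, and over all genes of these levels the medians were then -0.00018 and -0.0046. The 15 members between these levels had a median of -0.037, and -0.0027 without KO F731. Levels and roles were partly bound together in these genes. Of the 9 low members 5 were ligands, and 12 of the 14 high members were receptors, SMADs or corepressors. The 15 members between these levels were ligands, receptors, inhibitors and response genes. The parts of role and of level in the log2 fold changes were not tested.

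**Figure D4:**
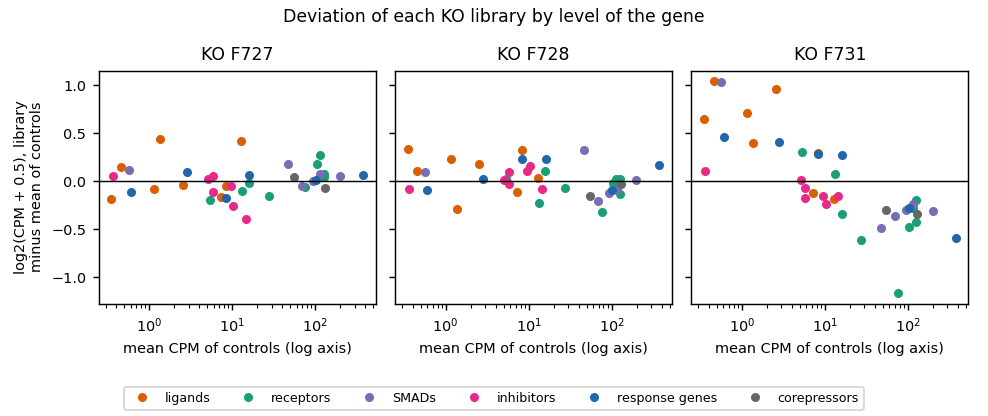
Deviation of each KO library from the mean of the controls, in log2(CPM + 0.5), for each member against its mean CPM in controls on a log axis, coloured by role. In KO F727 and F728 the points scatter about 0 at every level, with medians of 0.010 and 0.019, and in KO F731 low genes lie above 0 and high genes below, with a median of -0.17 over the 38 members.

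Markers of other cell types were also uneven in KO F731. It held the highest level for 10 of 12 choroid plexus genes, 8 of 10 genes of meninges and mesenchyme, 5 of 8 endothelial genes, 5 of 6 pericyte genes, 9 of 9 erythroid genes and 7 of 8 microglia genes. Of the choroid plexus list, 10 genes were under 3 CPM in controls, where KO F731 was the highest library for 68.9% of tested genes. In the other lists fewer genes were so low. They were 4 of 10 for meninges and mesenchyme, 0 of 8 endothelial, 1 of 6 pericyte, 1 of 9 erythroid and 3 of 8 microglia genes. KO F731 was the highest library for 31.3% of tested genes at 3 to 30 CPM and for 29.8% at 30 CPM and over. Summed CPM of the erythroid list was 5326 in KO F731 and 1474 to 1865 in the other libraries, and that of the microglia list was 57.7 and 28.2 to 32.9. The choroid plexus list summed to 22.7, 39.1 and 45.3 CPM in the KO libraries and 21.5, 27.8 and 30.4 CPM in the controls. *Ttr*, its defining gene, was at 2.20, 5.56 and 12.9 CPM in KO and 1.25, 0.27 and 4.01 CPM in control. The list was thus not lower in KO in this dissected tissue. The paper describes a strongly reduced choroid plexus in sections of KO brains, and the reason for the difference was not tested. The list of meninges and mesenchyme summed to 26.7, 75.0 and 107.1 CPM in KO and 28.5, 81.0 and 64.2 CPM in control, so that it was low in KO F727 and control F722 as well. KO F731 was also the highest library for 4 of the 8 ligands, and the part of these cells in the ligand values was not tested.

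With KO F727 left out, 2 members fell under an unadjusted *P*-value of 0.05, beside 6.56% of tested genes. They were *Acvr1b* (log2 fold change -0.69) and *Smad1* (-0.29), neither of which passed adjustment (edgeR adjusted *P*=0.57 for both). KO F731 then makes up 1 of the 2 KO libraries. For 18 of the 38 members the sign of the log2 fold change turned with at least 1 single library left out in edgeR or DESeq2. The other 20 kept their sign, among them *Bmp2*, *Bmp4*, *Bmp7*, *Tgfb3*, *Acvr1*, *Acvr1b*, *Smad1*, *Nog* and *Ski*.

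A wider list of 89 genes of the pathway was read in the same way, of which 71 were tested. With all 6 libraries, edgeR and DESeq2 called 0 of the 71 after adjustment. There were 36 above 0 and 35 below, and the median of their log2 fold changes was 0.0036. Of the 71 tested, 4 had every KO library above every control, as for 3.86% of all tested genes. Another 2 had every KO library below every control, as for 3.55% of tested genes. *Tll1*, which encodes a tolloid-like protease of the family that frees BMPs from chordin, was at 3.11, 2.59 and 2.55 CPM in KO F727, F728 and F731 and at 1.25, 1.99 and 1.36 CPM in control F722, F724 and F725. *Tll1* was among the 4 with every KO library above every control, and its log2 fold change was 0.84 (standard error 0.26, edgeR adjusted *P*=0.863) and 0.88 without KO F731. It was the 1 gene of the 71 under an unadjusted *P*-value of 0.05 over all 6 libraries, beside 1.92% of tested genes.

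Without KO F731, 5 of the 71 fell under that value, beside 2.63% of tested genes. *Rgma*, which encodes a membrane-anchored BMP co-receptor, was at 170.5, 199.4 and 124.6 CPM in KO and 122.3, 124.2 and 150.2 CPM in control, with KO F727 and F728 above every control and KO F731 among them. Its log2 fold change was 0.32 (standard error 0.18, edgeR adjusted *P*=0.863) over all 6 libraries. Without KO F731 it was 0.49 (standard error 0.11) and *Rgma* was called higher by DESeq2 (adjusted *P*=0.0489), beside 0.206% of 15999 genes, and not by edgeR (adjusted *P*=0.943). The others were *Tll1*, *Tnfrsf19* (log2 fold change 0.40 without KO F731), which encodes a receptor of the TNF receptor family, *Hey1* (0.19), which encodes a basic helix-loop-helix repressor, and *Nedd4l* (-0.15), which encodes a ubiquitin ligase that acts on SMAD2 and SMAD3. None of these 4 was called by edgeR or DESeq2 after adjustment. Of the 12 further ligands tested, 9 lay above 0 over all libraries and 8 without KO F731. Of the 21 further intracellular modulators 4 and then 10 did. Of the 7 further receptors tested, 6 and then 4 lay above 0, where 2 of the 9 member receptors and then 4 had done so. For the 18 further secreted modulators tested the counts above 0 were 10 and then 9, and for the 13 further response genes 7 and then 9.

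The exons of 5 members overlap those of a gene on the other strand, by 7.84% of the exonic length in *Acvr2a*, 5.74% in *Bmp6*, 3.96% in *Bmp4*, 3.82% in *Chrd* and 2.13% in *Id4*. Whether the counting used strand is not stated in the sources used here, so reads from these stretches may not have been told apart.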

How the data were processed

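Raw counts per gene of the iGenomes UCSC annotation, not normalized, were deposited by the authors, who used Trimmomatic for trimming and HISAT2 for alignment to mm10. The sources used here name neither the counting program nor its strand setting. Each library is a separate embryo. The table names its columns by animal and group, so columns were used as unnumbered replicates of a group, and 18 other columns were not used. ChIP-seq and ATAC-seq samples were not analysed here.

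Counts were tested in edgeR 4.0.16 (R 4.3.3) with filterByExpr (minimum count 10), TMM scaling, glmQLFit (robust) and glmQLFTest, with Benjamini-Hochberg adjustment over all tested genes and a threshold of 0.05. Standard errors were taken from the F statistic as |log2 fold change|/√F, and intervals are at 95%. CPM values are TMM-normalized. A single count was worth 0.0223 to 0.0689 CPM. The alternatives were DESeq2 1.42.0, limma-voom (limma 3.58.1), RLE and upper-quartile scaling, no filter, 1 CPM in 3 libraries as the filter, leaving out histone and structural RNA genes, and leaving out each library. Leaving out KO F731 and control F724 together was added after the values had been seen. The scripts were tested on simulated data. Library pairs shared identical counts for at most 1.1% of tested genes and differed by more than counting noise.

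The members, role groups, marker lists and wider pathway lists were chosen with earlier results of these data known. Full values are given for members under an unadjusted *P*-value of 0.05 with or without KO F731, called by DESeq2, with groups that did not overlap, or with the highest or lowest log2 fold change of their role group. Other values given per library were chosen after they had been seen. Wider pathway genes were named under the same *P*-value or by a DESeq2 call. Gene positions and exonic lengths come from GENCODE vM21 on GRCm38, matched by symbol.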

Additional observations from a re-analysis of the deposited data

How the results depend on the processing

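No member was called by edgeR, DESeq2 or limma-voom under any alternative that was run. Over all genes, edgeR called 0 higher and 0 lower, DESeq2 16 higher and 2 lower, and edgeR with no filter 1 lower. With 1 library left out, the counts ran from 0 to 23 higher and from 0 to 11 lower in edgeR and DESeq2, with the highest counts without KO F731 (23) and KO F728 (11). The median log2 fold change of the inhibitors (-0.037) ran from -0.15 to -0.0056 with 1 library left out.

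Some signs turned. Without KO F731 and control F724 together, the log2 fold changes were -0.19 for *Bmp6*, 0.14 for *Bmpr1a*, 0.16 for *Bmpr1b*, 0.091 for *Tgfbr1*, -0.022 for *Tgfbr2*, 0.057 for *Smad5*, -0.13 for *Smad9*, 0.050 for *Smad4*, 0.37 for *Grem1*, 0.098 for *Id2*, -0.026 for *Id3*, 0.019 for *Id4*, -0.43 for *Msx1* and 0.031 for *Skil*. With no filter they were -0.012 for *Acvr2a*, -0.000774 for *Tgfbr2* and -0.024 for *Bambi*. In limma-voom they were -0.0093 for *Tgfbr2*, 0.019 for *Grem1* and 0.78 for *Msx2*, and in DESeq2 -0.00080 for *Bambi*. The cause was not tested.

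With 1 library left out, *Tgfb2* ran from -0.10 to 0.24, *Bmpr1a* from -0.25 to 0.079, *Bmpr1b* from -0.20 to 0.045, *Acvr2a* from -0.15 to 0.15, *Acvr2b* from -0.32 to 0.018, *Tgfbr1* from -0.21 to 0.047, *Tgfbr2* from -0.10 to 0.17, *Smad5* from -0.16 to 0.034, *Smad3* from -0.14 to 0.26, *Grem1* from -0.24 to 0.45, *Bambi* from -0.055 to 0.090, *Smad6* from -0.15 to 0.12, *Smad7* from -0.15 to 0.097, *Id2* from -0.28 to 0.019, *Id3* from -0.0046 to 0.26, *Id4* from -0.26 to 0.11, *Msx1* from -0.31 to 0.35 and *Msx2* from -0.63 to 0.44. At 1 CPM in 3 libraries, 33 of the 38 members were left to test. No paired analysis was possible because the columns of the count table carry animal numbers and no replicate numbers, and nothing in the labels ties a KO embryo to a control embryo. The intervals of the 9 members under 3 CPM in controls extended past a 2-fold change, and without KO F731 those of *Bmp5*, *Bmp6* and *Tgfb1* did not.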
